A study of Drosophila melanogaster with 6 samples.

Results

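The RNA exosome is the complex that degrades and trims RNA from its 3′ end in the nucleus and the cytoplasm. Its 10 subunit genes listed in fly were measured here: Dis3, Rrp6, Rrp4, Rrp40, Csl4, Rrp42, Rrp45, Rrp46, Mtr3 and Ski6. They were picked out by symbol from the 17830 genes of a count table, and all 10 were found. The choice of these genes, and of the other lists below, was made with earlier results of these data known. The table comes from S2 cells, a Drosophila line of embryonic origin with blood cell features. One group of 3 libraries, with the genotype label Brr2 knockdown, was made after RNA interference against Brr2, and the other 3 libraries, with the genotype label WT, carry the same treatment label, RNAi, and the name Control. Per the labels' protocols, cells took up 8 µg of double-stranded RNA over 30 min without serum, although the sample titles carry the prefix sh; the sources used here name neither the target of the control RNA nor the days from treatment to harvest. Total RNA was depleted of ribosomal RNA. The study's stated question concerns Brr2 and the making of circular RNA. Values per gene do not separate circular, spliced and unspliced RNA.

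In the exosome, a barrel of RNase PH-like ring proteins carries a cap of S1-domain RNA-binding proteins, and RNA is threaded through both towards the nuclease Dis3. In yeast and human cells the ring and cap have lost catalytic activity, and the nuclear nuclease Rrp6 sits on the cap side. The nuclear complex trims the 3′ ends of rRNA and snoRNA precursors and clears faulty or unspliced transcripts. Cofactors choose its substrates: the helicase Mtr4 and the TRAMP poly(A) polymerases in the nucleus, and the SKI helicase complex in the cytoplasm. Many fly snoRNAs are made from introns, so their maturation joins splicing, which needs Brr2, to exonuclease trimming.

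Library totals were 127654975 to 147620403 estimated counts, and the 10 members held between 604 and 9325 of them in a library, so spread between libraries rather than counting error limits the comparison. Levels are in TMM-scaled CPM, that is, counts relative to the scaled total of their library. Brr2, under the symbol l(3)72Ab (FBgn0263599, chromosome 3L), had 108.5, 94.02 and 99.83 CPM in the knockdown libraries, against 158.1, 198.5 and 221.1 CPM in the control libraries. It fell to 52.3% of the control level (log2 fold change -0.93, SE 0.155, edgeR adjusted p = 0.0111). An exact 2-sided permutation test gave p = 0.1, the smallest that 3 against 3 libraries allow. Since no label says that replicates were separate cultures, the p-values cover the spread among these libraries only, and that may be technical. In bulk RNA, fewer cells expressing a gene and less of its RNA per cell cannot be told apart. The blood cell genes srp and crq were present, at 97.7 ± 16.55 and 208 ± 13.9 CPM in the knockdown libraries and 107.2 ± 9.42 and 263.3 ± 80.8 CPM in the control libraries (SD, n = 3 each), whereas Sr-CI and NimC1 stayed under 1 CPM in every library. Of 10 plasmatocyte markers, He rose and Pxn and Ppn fell by edgeR (30.0%, against 17.7% of all genes tested). With the replicate block 1 rose and 4 fell, where 25.6% of all genes were called. The block added the collagen genes Col4a1 and vkg (edgeR adjusted p = 0.0106 and 0.0132 with the block, 0.0804 and 0.116 without it). Their DESeq2 adjusted p was 0.0102 and 0.0307, where DESeq2 called 27.6% of all genes. The edgeR adjusted p of Ppn was 0.0613, 0.086, 0.073 and 0.0851 without knockdown replicate 1, knockdown replicate 3, control replicate 1 and control replicate 2. The list summed to 1013 to 2037 CPM in the knockdown libraries and 2231 to 3269 CPM in the control libraries. The largest parts were Col4a1 and vkg, with means of 459.5 and 561.4 CPM in knockdown and 929.3 and 1034 CPM in control. The means of He, NimC1, Sr-CI and Hml were higher in knockdown, and those of the other listed plasmatocyte markers were lower. Markers of crystal cells summed to 0.615 to 5.83 CPM in knockdown and 0.422 to 1.27 CPM in control libraries (PPO2 under 1 CPM), and those of lamellocytes to 3.16 to 5.83 CPM in knockdown and 2.74 to 4.65 CPM in control (atilla under 1 CPM). Ovarian somatic markers summed to 2.09 to 4.01 CPM in knockdown and 1.15 to 2.13 CPM in control (tj under 1 CPM), and germline markers to 0.903 to 1.94 CPM in knockdown and 0.616 to 2.43 CPM in control (vas, nos and bam under 1 CPM). Neuron markers summed to 40.9 to 45.8 CPM in the knockdown and 38.2 to 49.4 CPM in the control libraries (nSyb under 1 CPM), and muscle markers to 0.495 to 0.666 CPM in knockdown and 0.35 to 1.08 CPM in control (all 3 under 1 CPM). In these lists Fas3, an ovarian somatic marker, rose (log2 fold change 1.55, edgeR adjusted p = 0.0429), a call that was lost without any library except knockdown replicate 2 (edgeR adjusted p values of 0.056 to 0.143). The part of these marker differences in the results below was not tested.

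Of the 10 exosome genes, 1 fell, Mtr3, and 0 rose by edgeR at an adjusted p under 0.05. Among all 11590 genes tested, 17.7% passed, 8.05% upward and 9.63% downward (933 and 1116 genes; 573 and 2788 under total-count scaling, 1227 and 809 under upper quartile scaling), so a count of 1 in 10 is near the background. Mtr3 was also the only member at an unadjusted p under 0.05, and DESeq2 and limma voom each called the same number, 0 up and 1 down. Log2 fold changes of the members ran from -0.96 to 0.46 with a median of 0.09, beside a median of -0.02 over all genes tested. Under total-count scaling the members' median was -0.26, with 1 of the 10 above 0, and the median of all genes moved by -0.34. TMM factors were 0.855 to 0.914 in the knockdown and 1.036 to 1.262 in the control libraries. Library ranges did not overlap for 2 members, Mtr3 (lower in knockdown) and Rrp6 (higher), against 41.8% of all genes. With a block for the replicate number, 2 members were called, Mtr3 lower and Ski6 higher, where 25.6% of all genes tested were called, and 11.3% of all genes tested were called upward. Mtr3 was the sole call under DESeq2 (27.6% of all genes called), limma voom (18.3%), total-count scaling (29.0%), RLE or upper quartile scaling (17.6% each), no filter (7.79% of 16153 genes), a filter at 5 CPM (25.4%) and genes only (17.8%). No member was called without knockdown replicate 1 (5.2% of genes called), knockdown replicate 2 (15.6%), knockdown replicate 3 (6.49%) or control replicate 1 (5.7%), 1 was without control replicate 2 (7.41%) and 2 were without control replicate 3 (16.0%).

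**Figure D1:**
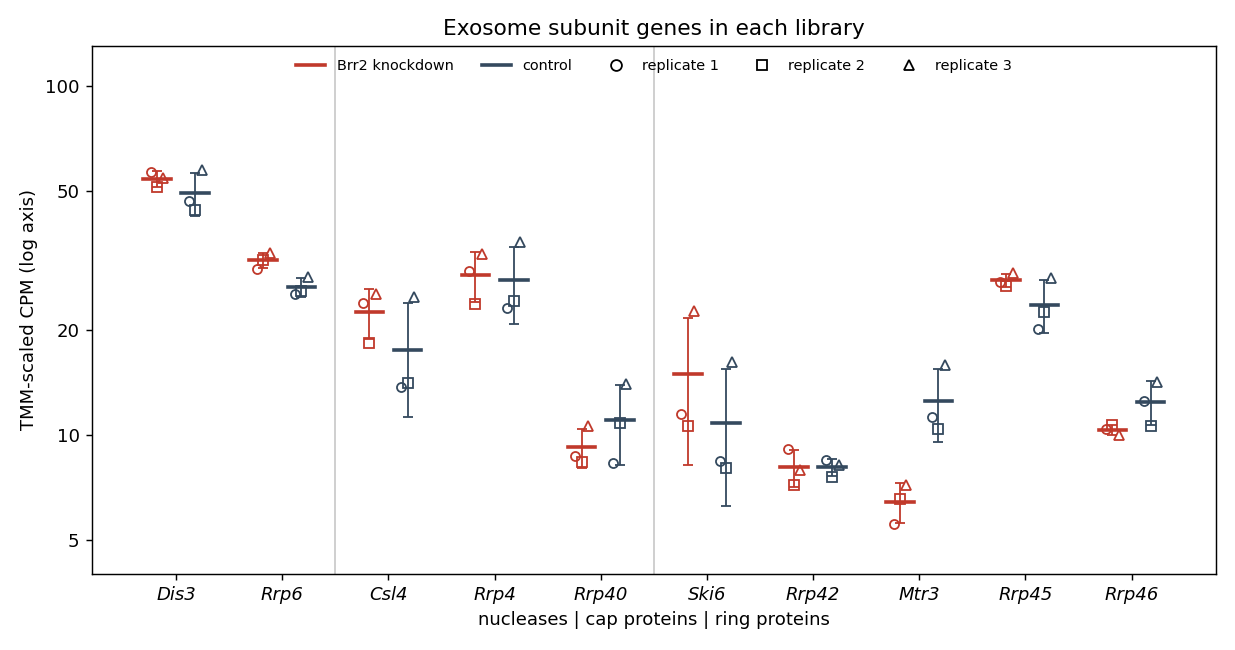
TMM-scaled CPM on a log axis for the 10 exosome genes in each library, knockdown left of control for each gene, with marker shapes for the replicate numbers and a line at each group mean. Mtr3 lies at 5.535 to 7.172 CPM in the knockdown libraries, below the 10.36 to 15.84 CPM of the control libraries, and replicate 3 is the highest library for most members in both groups.

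The nucleases come first. Dis3 (FBgn0039183; BDGP6.54, chromosome 3R, 24333433 to 24337248, plus strand, 4 introns) encodes the processive 3′ to 5′ exonuclease of the complex, which also has an endonuclease domain. Its levels were 56.73, 51.15 and 54.46 CPM in the knockdown libraries, against 46.73, 44.06 and 57.27 CPM in the control libraries. Control replicate 3 was the highest of the 6 libraries and the groups overlapped. The log2 fold change was 0.13 (SE 0.135, 95% interval -0.18 to 0.45, edgeR adjusted p = 0.52).

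Rrp6 (FBgn0038269; chromosome 3R, 14882498 to 14886246, minus strand, 4 introns) encodes the nuclear exonuclease that in yeast finishes the trimming of snoRNA ends. It had 29.91, 31.7 and 33.22 CPM in the knockdown libraries and 25.27, 25.77 and 28.3 CPM in the control libraries. Every knockdown library lay above every control library, by a narrow gap between 28.3 and 29.91 CPM. The difference did not pass the test (log2 fold change 0.26, SE 0.111, 95% interval -0.0018 to 0.52, edgeR adjusted p = 0.147), and its sign turned, to -0.08, under total-count scaling.

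The cap proteins Rrp4, Rrp40 and Csl4 carry S1 RNA-binding domains and line the entrance to the channel. Rrp4 (FBgn0034879; chromosome 2R, 23555018 to 23556217, minus strand, 1 intron) had 29.4, 23.64 and 33.04 CPM after knockdown, against 23.14, 24.22 and 35.62 CPM in control. Both groups had their highest library at replicate 3 and their ranges overlapped broadly (log2 fold change 0.05, SE 0.206, 95% interval -0.43 to 0.54, edgeR adjusted p = 0.88).

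Rrp40 (FBgn0260648; chromosome 2L, 1728732 to 1729762, plus strand, no intron) had 8.669, 8.378 and 10.58 CPM in knockdown libraries and 8.321, 10.8 and 13.98 CPM in control libraries. These ranges overlapped too (log2 fold change -0.26, SE 0.219, 95% interval -0.77 to 0.25, edgeR adjusted p = 0.434). The gene lies antisense to Eno, the glycolytic enzyme enolase, and 362 of its exonic bases (35.1%) are also exon of Eno. Eno was 51.1 times as high in mean CPM as Rrp40 in the knockdown libraries and 62.6 times in the control libraries. Its levels were 402.7, 614.4 and 394.2 CPM in knockdown, against 770.8, 808.7 and 492.2 CPM in control. The sources used here do not give whether counting used strand, so reads of these 2 genes may not be separated and the level of Rrp40 is uncertain.

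Csl4 (FBgn0032346; chromosome 2L, 11122574 to 11123567, minus strand, 1 intron) had 23.77, 18.34 and 25.26 CPM in the knockdown libraries, against 13.69, 14.05 and 24.78 CPM in the control libraries. Control replicate 3 stood within the knockdown range, and the other control libraries stood below it. The difference did not pass (log2 fold change 0.36, SE 0.258, 95% interval -0.25 to 0.96, edgeR adjusted p = 0.365). Without control replicate 3 it was 0.71 (edgeR adjusted p = 0.0442).

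The ring has its 5 listed genes in Mtr3, Ski6, Rrp42, Rrp45 and Rrp46, whose products resemble bacterial RNase PH. Mtr3 (FBgn0036916; chromosome 3L, 19912405 to 19913715, minus strand, 1 intron) had 5.535, 6.557 and 7.172 CPM in the knockdown libraries, against 11.25, 10.36 and 15.84 CPM in the control libraries. All 3 knockdown libraries lay below all 3 control libraries. Its mean fell to 6.42 ± 0.827 CPM in knockdown libraries, against 12.48 ± 2.94 CPM in control libraries (SD, n = 3 each), which is 51.4% of the control level (log2 fold change -0.96, SE 0.21, 95% interval -1.45 to -0.47, edgeR adjusted p = 0.0241). The edgeR adjusted p was 0.0924 without knockdown replicate 1, 0.0526 without knockdown replicate 2, 0.0612 without knockdown replicate 3 and 0.0612 without control replicate 1, while the log2 fold change over all 6 omissions stayed between -1.07 and -0.74. It shares 100 exonic bases (8.0%) with the antisense gene Prp3, a U4/U6 snRNP protein gene at 33.31, 30.81 and 31.93 CPM in knockdown and 22.22, 23.2 and 29.31 CPM in control, a difference of the opposite sign (log2 fold change 0.36, edgeR adjusted p = 0.112).

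Ski6 (FBgn0032487; chromosome 2L, 13221397 to 13222429, minus strand), the fly counterpart of Rrp41, had 11.49, 10.61 and 22.67 CPM in knockdown libraries and 8.398, 8.005 and 16.11 CPM in control libraries. In both groups replicate 3 stood far above the other replicates, by 1.0 on the log2 scale in knockdown and 0.93 in control. The ranges overlapped and the reported test did not call it (log2 fold change 0.46, SE 0.381, 95% interval -0.43 to 1.35, edgeR adjusted p = 0.427). With the replicate block it was called higher (log2 fold change 0.45, edgeR adjusted p = 0.042). Each knockdown library was above the control library of the same number, which restates the counts behind that call. The same order held for Rrp6, Rrp45 and Csl4, which were not called with the block (edgeR adjusted p = 0.0982, 0.178 and 0.137). The gene mRF1, which overlaps Ski6 by 2 bases on the other strand, also had its highest level in replicate 3. It had 4.82, 3.562 and 14.61 CPM in knockdown and 3.362, 4.461 and 7.111 CPM in control. The nearest genes without overlap, CG16812 and CG9426, were highest in replicate 3 of both groups as well.

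Rrp42 (FBgn0034065; chromosome 2R, 16014908 to 16016050, plus strand, 3 introns) had 9.109, 7.156 and 7.92 CPM after knockdown, against 8.454, 7.589 and 8.168 CPM in control. Its groups overlapped almost fully (log2 fold change -0.0017, SE 0.158, 95% interval -0.37 to 0.37, edgeR adjusted p = 0.995). Rrp45 (FBgn0030789; chromosome X, 16789405 to 16791266, minus strand, 2 introns) had 27.41, 26.68 and 29.04 CPM in the knockdown and 20.14, 22.54 and 28.1 CPM in the control libraries. Control replicate 3 was inside the knockdown range (log2 fold change 0.23, SE 0.148, 95% interval -0.11 to 0.58, edgeR adjusted p = 0.309), and 240 exonic bases (14.6%) are shared with the antisense gene Sap30.

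Rrp46 (FBgn0037815; chromosome 3R, 10413301 to 10414242, plus strand, 2 introns) had 10.35, 10.68 and 9.999 CPM in knockdown libraries, against 12.46, 10.61 and 14.19 CPM in control libraries. Control replicate 2 lay inside the knockdown range and the other 2 control libraries above it (log2 fold change -0.26, SE 0.154, 95% interval -0.62 to 0.1, edgeR adjusted p = 0.268). The other exonic overlaps between members and their neighbours were small, at 0.2% to 4.2% of the member's exonic length for Dis3, Rrp6, Rrp42, Rrp46 and Ski6, and Rrp4 and Csl4 had none.

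**Figure D2:**
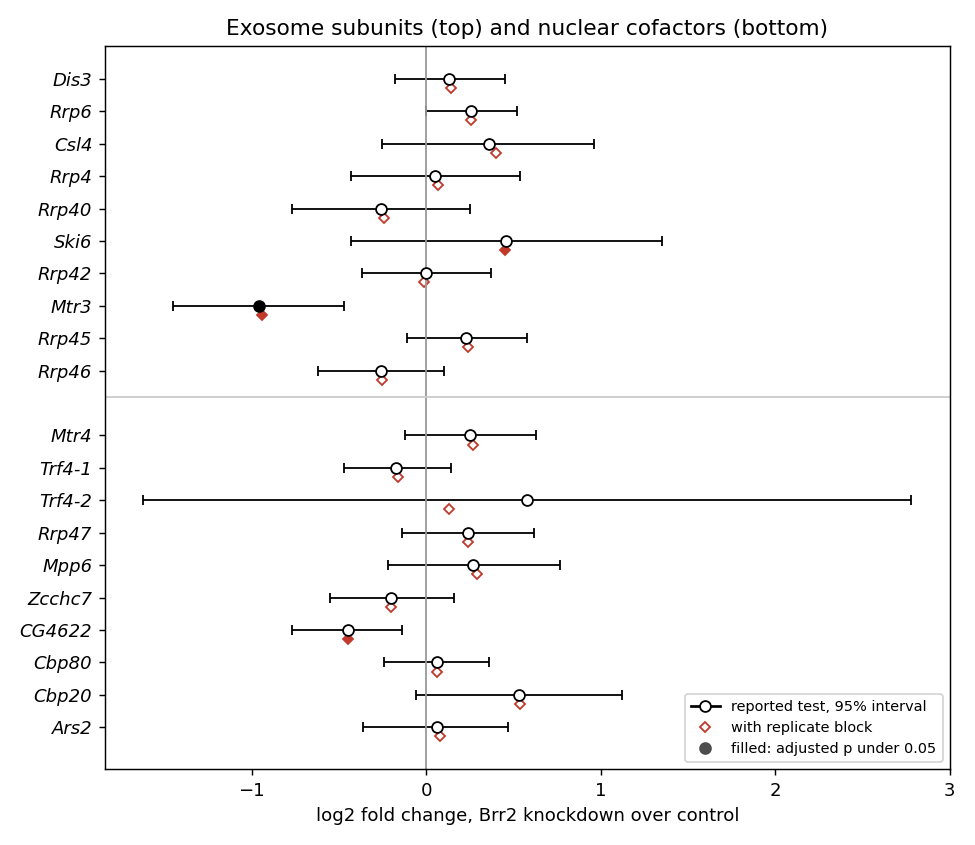
Log2 fold change of knockdown over control for the 10 exosome genes (top) and 10 nuclear cofactor genes (bottom), with the 95% interval of the reported edgeR test, diamonds for the fit with a replicate block and filled circles for adjusted p under 0.05. Mtr3, at -0.96, is the only filled circle, and the interval of Ski6 runs from -0.43 to 1.35 in the reported test.

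The subunits share a complex, and their RNA levels can be compared per length. In TMM-scaled CPM per kb of exon, mean levels in the control libraries ran from 24.33 for Rrp4 to 8.18 for Rrp6, a 2.97-fold span, and no 2 neighbours in the order had ranges that stood apart. Below Rrp4 followed Csl4 at 18.62, Rrp46 at 15.16, Rrp45 at 14.32, Dis3 at 13.75, Ski6 at 11.06, Rrp40 at 10.7, Mtr3 at 9.96 and Rrp42 at 8.23. Per coding length, the top gene was again Rrp4 and the lowest was Rrp42. The cap genes thus held both the highest levels and a middle one, and the nucleases were spread over the order.

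In the knockdown libraries the same scale gave Rrp4 25.24, Csl4 23.89, Rrp45 16.82, Ski6 15.23, Dis3 15.08, Rrp46 12.63, Rrp6 9.78, Rrp40 8.93, Rrp42 8.22 and Mtr3 5.13 CPM per kb. Ranges stood apart between Csl4 and Rrp45, between Dis3 and Rrp46, between Rrp46 and Rrp6, and between Rrp42 and Mtr3, and overlapped between the other neighbours. Mtr3 was thus in place 10 of 10 after knockdown and in place 8 in control. Its mean level per kb was below that of the next gene, Rrp42, by a ratio of 1.60 after knockdown, whereas in control the level of Mtr3 was 1.21 times that of Rrp42, with overlapping ranges.

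A share of the summed level of the 10 genes does not depend on how libraries are scaled. Mtr3 held 3.171%, 4.184% and 3.613% of the summed level per kb in the knockdown libraries, against 7.645%, 7.02% and 7.538% in the control libraries. Its level per kb over the geometric mean of the other 4 ring genes was 0.359, 0.461 and 0.404 in knockdown libraries and 0.829, 0.804 and 0.892 in control libraries. Within each group these values lay close together and between groups they did not overlap. They restate the same counts in which Mtr3 was the member called, so they are not a further test of it. The sum itself was 139.3, 125.1 and 158.4 CPM per kb in knockdown and 117.4, 117.8 and 167.8 CPM per kb in control, with overlapping ranges. As parts of that sum, the nucleases held 17.8% ± 1.60 in knockdown and 16.6% ± 1.60 in control (SD, n = 3 each, here and for the next parts). The cap held 41.1% ± 2.10 in knockdown and 39.6% ± 2.93 in control. The ring held 41.15% ± 1.64 in knockdown and 43.9% ± 1.56 in control. The ring includes Mtr3, with a mean share of 3.66% in knockdown and 7.40% in control. Of the other ring genes, Ski6 and Rrp45 had higher mean shares in knockdown, and Rrp46 and Rrp42 lower ones. The share of Rrp40, whose reads may mix with those of Eno, was also apart between groups, at 6.035%, 6.497% and 6.479% in knockdown and 6.872%, 8.891% and 8.081% in control.

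**Figure D3:**
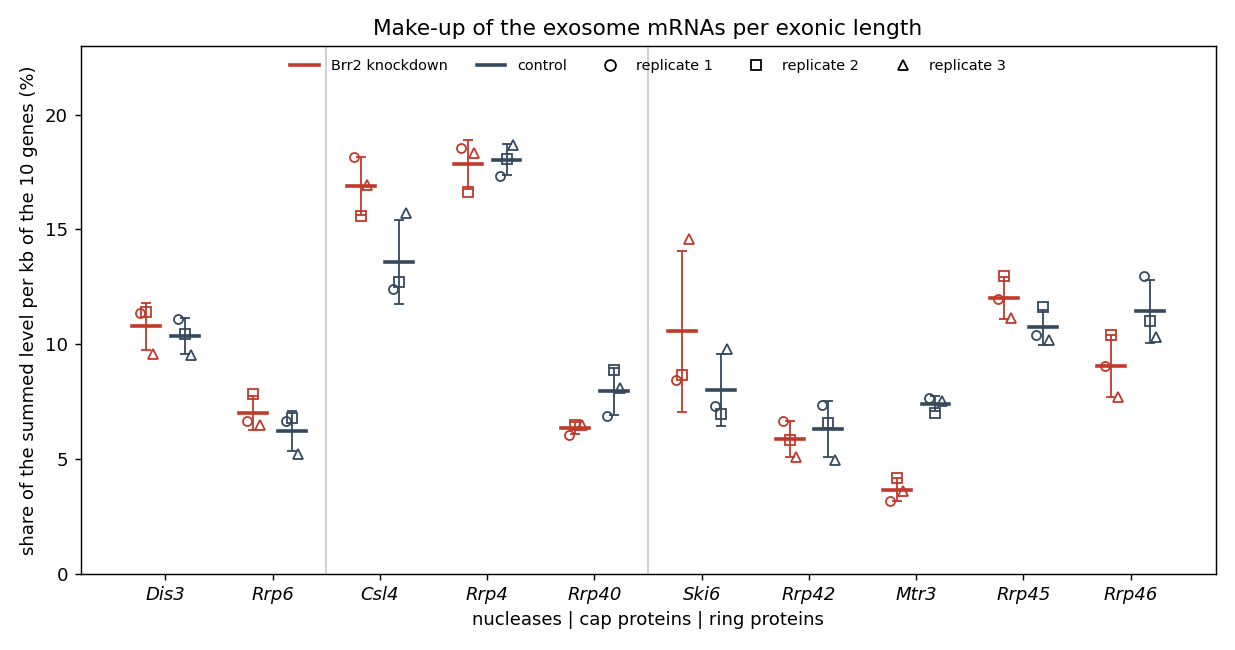
Share in percent of the summed level per kb of the 10 exosome genes, per library, knockdown left of control for each gene, with marker shapes for the replicate numbers and a line at each group mean. Mtr3 holds 3.171% to 4.184% in the knockdown and 7.02% to 7.645% in the control libraries, whereas Ski6 in replicate 3 of the knockdown, at 14.6%, stands above all other Ski6 values.

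Replicates differed in a way the groups do not give. Replicate 3 was the highest of its group for 7 of 10 members in knockdown and 9 of 10 in control, whereas among all tested genes it was the highest for 29.9% in knockdown and 39.6% in control. Relative to the other 2 libraries of its group, knockdown replicate 3 differed by -0.07 (Rrp46) to 1.0 (Ski6) on the log2 scale over the 10 members. The control replicate 3 differed by 0.02 (Rrp42) to 0.93 (Ski6). Across protein-coding genes, the median of that log2 difference was 0.09 for exonic lengths under 1000 bases and -0.08 above 4000 bases in knockdown, and 0.13 and -0.05 in control. The part of this shift in the members' values was not tested.

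Of 11 nuclear cofactor genes listed, 10 were tested and 0 passed by edgeR, where 17.7% of all genes did. At an unadjusted edgeR p under 0.05 there was 1. DESeq2 called 1 (27.6% of all genes called), limma voom 0 (18.3%) and the fit with the replicate block 1 (25.6%). The median log2 fold change of the 10 was 0.15. The exception was CG4622, listed by RefSeq under the synonym ZCCHC8, which in human cells names a scaffold of the nuclear exosome targeting complex. It had 15.62, 15.53 and 13.19 CPM in the knockdown libraries, against 21.31, 21.09 and 18.31 CPM in the control libraries, so the groups did not overlap. The log2 fold change was -0.45 (SE 0.135, 95% interval -0.77 to -0.14, edgeR adjusted p = 0.0586). The adjusted p was 0.0221 by DESeq2 and 0.0309 by edgeR with the replicate block.

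The helicase gene Mtr4 had 48.02, 47.15 and 44.01 CPM in knockdown and 31.98, 37.42 and 47.32 CPM in control, with control replicate 3 inside the knockdown range (log2 fold change 0.25, edgeR adjusted p = 0.302). Of the TRAMP genes, the poly(A) polymerase gene Trf4-1 gave -0.17 (edgeR adjusted p = 0.401) and Zcchc7, a zinc knuckle protein gene, -0.2 (edgeR adjusted p = 0.4). Trf4-2 stood at or below 0.5132 CPM in every library. Rrp47, the partner of Rrp6 in yeast, gave 0.24 (edgeR adjusted p = 0.34) and Mpp6, an RNA-binding cofactor, 0.27 (edgeR adjusted p = 0.4). The cap-binding genes Cbp80 and Cbp20 gave 0.06 (edgeR adjusted p = 0.782) and 0.53 (edgeR adjusted p = 0.181), and Ars2, which joins the cap-binding complex to the decay machinery, gave 0.06 (edgeR adjusted p = 0.843). Total-count scaling moved the median of all genes by -0.34, and under it Mtr4, Rrp47, Mpp6, Cbp80 and Ars2, none of them called, had negative signs.

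In the cytoplasm the exosome works with the SKI complex, and HBS1 and pelo act beside it in freeing stalled ribosomes. Of these 5 genes, 1 rose and 1 fell (40.0%, against 17.7% of all genes), and 1 rose and 2 fell, pelo added, under total-count scaling. HBS1, a GTPase gene, had 94.89, 69.51 and 81.87 CPM in the knockdown libraries, against 31.54, 33.71 and 32.66 CPM in the control libraries. Every knockdown library was above every control library, and the rise was 2.52-fold (log2 fold change 1.33, SE 0.142, edgeR adjusted p = 0.00329). CG8777, which RefSeq lists under the synonym Ski3, the scaffold of the SKI complex in yeast, had 25.29, 31.05 and 26.03 CPM in knockdown and 54.68, 45.77 and 42.7 CPM in control. It fell to 57.5% of the control level without overlap (log2 fold change -0.8, SE 0.145, edgeR adjusted p = 0.0139). The edgeR adjusted p of CG8777 was 0.0622, 0.0585 and 0.0511 without knockdown replicate 1, knockdown replicate 3 and control replicate 1. The Ski2 helicase gene tst gave -0.07 (edgeR adjusted p = 0.788), CG3909, with the RefSeq synonym Ski8, 0.03 (edgeR adjusted p = 0.92), and pelo, which binds stalled ribosomes with HBS1, -0.18 (edgeR adjusted p = 0.326).

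**Figure D4:**
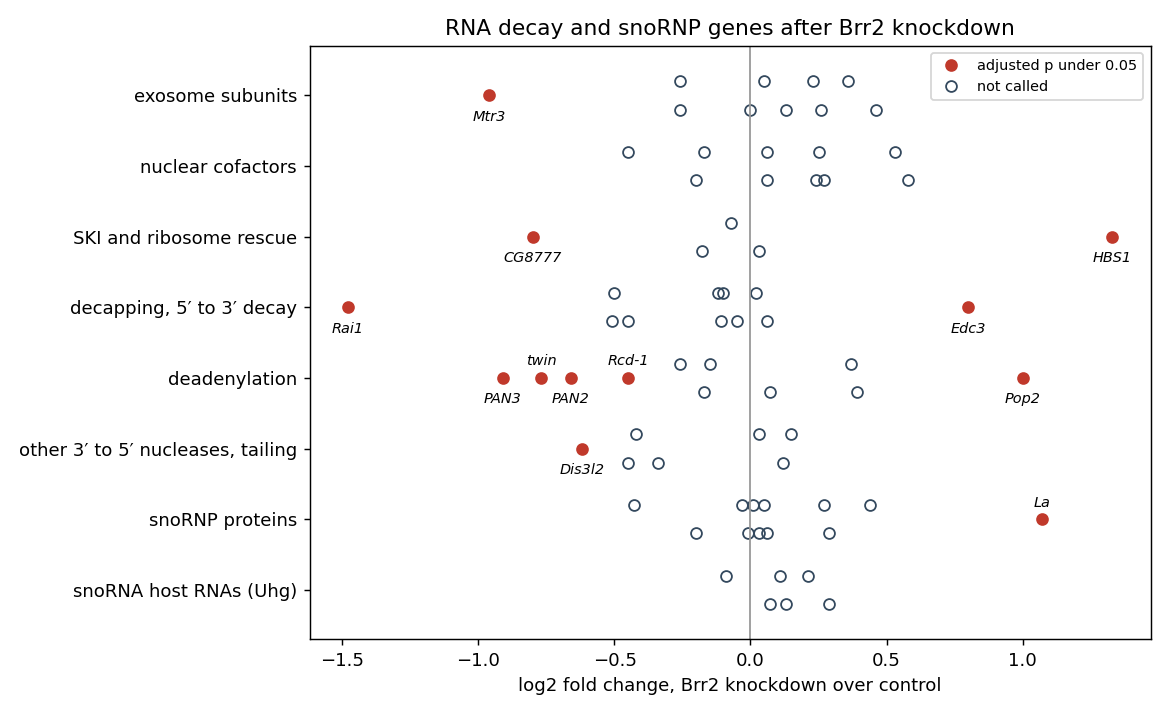
Log2 fold change of knockdown over control for the tested genes of 8 lists (exosome subunits, nuclear cofactors, SKI and ribosome rescue, decapping and 5′ to 3′ decay, deadenylation, other 3′ to 5′ nucleases and tailing, snoRNP proteins, snoRNA host RNAs), one point a gene, filled where the edgeR adjusted p was under 0.05. Filled points run from Rai1 at -1.48 to HBS1 at 1.33, and the cofactor and host RNA rows hold none.

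The opposite route, decapping followed by 5′ to 3′ decay, had 1 gene up and 1 down of 11 (18.2%, against 17.7% of all genes; median log2 fold change -0.11), and 1 up and 4 down under total-count scaling. Rai1, which in yeast binds the nuclear 5′ to 3′ exonuclease Rat1 and removes faulty caps, had 6.763, 7.835 and 9.303 CPM in the knockdown libraries and 20.42, 21.09 and 25.19 CPM in the control libraries. It fell to 35.8% of the control level, and no library of the groups overlapped (log2 fold change -1.48, SE 0.17, edgeR adjusted p = 0.00422). Edc3, an enhancer of decapping, averaged 106.3 ± 7.05 CPM in knockdown and 61.3 ± 11.85 CPM in control libraries (SD, n = 3 each) and rose 1.74-fold (log2 fold change 0.8, SE 0.165, edgeR adjusted p = 0.0204). Its edgeR adjusted p was 0.0792 without knockdown replicate 1, 0.0543 without knockdown replicate 3 and 0.0656 without control replicate 2. The exonuclease gene pcm, the fly Xrn1, gave -0.5 (edgeR adjusted p = 0.1; 0.0311 with the replicate block), and LSm1, of the decapping activator ring, -0.45 (edgeR adjusted p = 0.104).

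Removal of the poly(A) tail precedes both routes for mRNA. Of 11 deadenylation genes, 1 rose and 4 fell (45.5%, against 17.7% of all genes; median log2 fold change -0.17). The split depended on the setting, with 3 up and 2 down under upper quartile scaling, 1 up and 5 down under total-count scaling, and 3 up and 4 down with the filter at 5 CPM. Pop2, the Caf1-type deadenylase of the CCR4-NOT complex, averaged 96.7 ± 14.0 CPM in knockdown and 48.2 ± 4.41 CPM in control libraries (SD, n = 3 each), a 2.01-fold rise (log2 fold change 1.0, SE 0.146, edgeR adjusted p = 0.00793). The second deadenylase of the complex, twin (the fly CCR4), averaged 29.6 ± 4.06 CPM in knockdown and 50.5 ± 4.26 CPM in control libraries and fell to 58.5% of control (log2 fold change -0.77, SE 0.14, edgeR adjusted p = 0.0137). The paired nuclease subunits PAN3 and PAN2 fell as well, PAN3 to 53.2% of control (log2 fold change -0.91, edgeR adjusted p = 0.0232) and PAN2 with a log2 fold change of -0.66 (edgeR adjusted p = 0.0483). PAN2 was named after its values were seen, and its call was lost with upper quartile scaling (edgeR adjusted p = 0.0745), without a filter (0.0808) and with genes only (0.0514). Rcd-1, a CCR4-NOT subunit, fell to 73.25% of control (log2 fold change -0.45, edgeR adjusted p = 0.0378), and lost its call with upper-quartile scaling (edgeR adjusted p = 0.0824) and without a filter (edgeR adjusted p = 0.0567).

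Among these genes, leaving out libraries ended several calls. The count of 5 went to 1 without knockdown replicate 1, knockdown replicate 3 or control replicate 1, and to 2 without control replicate 2. For twin the edgeR adjusted p values were 0.0597 without knockdown replicate 1, 0.0592 without knockdown replicate 3 and 0.0545 without control replicate 1. PAN3 had edgeR adjusted p values of 0.0919 without knockdown replicate 1, 0.0773 without knockdown replicate 3, 0.0826 without control replicate 1 and 0.0738 without control replicate 2. For PAN2 they were 0.153 without knockdown replicate 1, 0.149 without knockdown replicate 3, 0.139 without control replicate 1 and 0.112 without control replicate 2. Rcd-1 missed the threshold without any library except knockdown replicate 2, at edgeR adjusted p values of 0.0673 to 0.141. Pop2, HBS1 and Rai1 passed without any single library, at edgeR adjusted p values of up to 0.0382, 0.0239 and 0.0237.

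Of 8 other 3′ to 5′ exonuclease and tailing genes listed, 7 were tested and 1 fell (14.3%, against 17.7% of all genes). The median log2 fold change of the 7 was -0.34. Dis3l2, a cytoplasmic relative of Dis3 that degrades uridylated RNA without the exosome, had 24.6, 31.05 and 25.18 CPM in the knockdown libraries, against 39.11, 44.51 and 40.43 CPM in the control libraries. It fell to 65.2% of control without overlap (log2 fold change -0.62, SE 0.134, edgeR adjusted p = 0.0233). Its edgeR adjusted p was 0.0936 without knockdown replicate 1, 0.0905 without knockdown replicate 3, 0.0648 without control replicate 1 and 0.0803 without control replicate 2. Tailor, the terminal uridylyltransferase that tails RNA for Dis3l2 in fly, had 50.26, 66.96 and 52.72 CPM in knockdown and 84.68, 75.16 and 73.1 CPM in control. That difference did not pass (log2 fold change -0.45, edgeR adjusted p = 0.074; DESeq2 adjusted p = 0.0362). The exonuclease genes Snp and prage gave -0.34 (edgeR adjusted p = 0.174) and -0.42 (edgeR adjusted p = 0.154; 0.0319 with the replicate block).

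The snoRNAs, whose ends the nuclear exosome trims, and the proteins that hold them were the last lists. Of 15 snoRNP protein and assembly genes listed, 12 were tested and 1 rose (8.33%, near the 8.05% of all genes called upward). The median log2 fold change of the 12 was 0.04. La, which binds the U-rich 3′ ends of new RNA polymerase III transcripts and shields them from exonucleases, had 494.4, 382.9 and 513.2 CPM in the knockdown libraries and 170.2, 195.3 and 298.4 CPM in the control libraries. All knockdown libraries were above all control libraries, a 2.09-fold rise (log2 fold change 1.07, SE 0.236, edgeR adjusted p = 0.025). The edgeR adjusted p of La was 0.109 with total-count scaling and 0.055 without a filter. It was 0.0897 without knockdown replicate 1, 0.0812 without knockdown replicate 3, 0.0774 without control replicate 1 and 0.0913 without control replicate 2. Nufip, a snoRNP assembly factor gene, gave 0.44 (edgeR adjusted p = 0.175), CG7637, which RefSeq names Nop10, a box H/ACA protein gene, -0.43 (edgeR adjusted p = 0.355), and Nopp140, a nucleolar chaperone gene, 0.29 (edgeR adjusted p = 0.429).

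Of 7 Uhg genes, noncoding hosts whose introns carry snoRNAs, 6 were tested. None passed by edgeR, where 17.7% of all genes did, and none had an unadjusted p under 0.05. None was called by DESeq2, limma voom or the blocked fit, and the median log2 fold change of the 6 was 0.12. Uhg1 gave 0.21 (edgeR adjusted p = 0.367), Uhg4 -0.09 (edgeR adjusted p = 0.674), Uhg5 0.29 (edgeR adjusted p = 0.674) and Uhg3 0.13 (edgeR adjusted p = 0.708).

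Of 304 snoRNA and scaRNA genes, 236 were tested, of which 22.0% were called, 52 up and 0 down. Of all genes tested, 17.7% were called and 8.05% were called upward. The median log2 fold change of the 236 was 0.89. DESeq2 called 80 up and 4 down (27.6% of all genes called) and limma voom 52 up and 0 down (18.3%). The split was 24 up and 5 down with total-count scaling (29.0% of all genes called). The filter keeps genes with enough counts in at least 3 libraries of either group, so a gene high in 1 group alone can pass. Most of these RNAs are low, at a median of 0.999 CPM in knockdown and 0.524 CPM in control libraries. Of the 210 tested that lie inside a gene of the same strand, 50 rose and the median was 0.92. Of the 14 tested that are not inside such a gene, 1 rose and the median was 0.72. These parts hold only genes found in the annotation, so they do not add up to the 236 tested or the 52 called. Of the 83 genes that hold snoRNAs, 7 rose and 3 fell, and their median was -0.08. No test compared these groups with each other. The box H/ACA RNA gene snoRNA:Psi28S-2626 had 61.94, 31.69 and 38.89 CPM in the knockdown libraries, against 15.2, 12.93 and 13.96 CPM in the control libraries (log2 fold change 1.65, edgeR adjusted p = 0.00869). Also without overlap, snoRNA:Psi28S-1135a averaged 8.12 ± 1.79 CPM in knockdown and 1.44 ± 0.548 CPM in control (SD, n = 3 each). On the same measure snoRNA:Psi28S-3327b had 9.48 ± 3.80 CPM in knockdown and 1.87 ± 0.562 CPM in control, and snoRNA:Psi28S-2876 had 9.79 ± 3.44 CPM in knockdown and 2.85 ± 0.294 CPM in control (log2 fold changes 2.49, 2.34 and 1.78 for the 3 genes, edgeR adjusted p = 0.00589, 0.00859 and 0.00891). Copies of snoRNA genes resemble each other, and intronic ones share bases with unspliced host RNA, so single values are uncertain. The count was 10 of 238 without knockdown replicate 1 (5.2% of all genes called) and 18 of 238 without knockdown replicate 3 (6.49%). It was 9 of 240 without control replicate 1 (5.7%) and 8 of 240 without control replicate 2 (7.41%). Without knockdown replicate 2 it was 43 of 237 (15.6%), and without control replicate 3 it was 62 of 239 (16.0%).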

How the data were processed

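The authors deposited estimated counts for genes and transposon copies as whole numbers, without scaling between libraries; an excess of features at 1 (a mean of 965.7 per library, against 368.5 at 2) means they may not be counts of separate reads. The submitters' processing notes name Trimmomatic, TopHat2 and BDGP6; the counting tool and its strand setting were not stated in the sources used. Positions come from the Ensembl 115 annotation of BDGP6.54, and symbols also from RefSeq.

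All 14167 features passing filterByExpr were fitted with edgeR 4.0.16 under R 4.3.3 (quasi-likelihood test by glmQLFit and glmQLFTest, TMM, replicates not blocked, Benjamini-Hochberg over all, threshold 0.05), after the script was tested on simulated data. SE is the size of the log2 fold change divided by the root of F, and intervals are 95%. Alternatives were other scalings and filters, DESeq2 1.42.0, limma 3.58.1 voom, leaving out each library and blocking on the replicate number.

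The groups share replicate numbers. Deviations from group means correlated at 0.16, 0.239 and 0.317 between same-numbered libraries and at -0.229 to 0.0506 otherwise. Same-numbered libraries thus went together weakly in these data, although the labels state no pairing. Deviations within a group cancel out, so these correlations depend on each other. The reported test and its p-values do not use this pairing. Only the fit with the replicate block does, and it called 2966 of the 11590 genes tested, against 2049 in the reported test. Libraries of 1 group differed beyond sampling noise in every pair (chi-square over its degrees of freedom, 103.3 to 1442).

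The members and lists were chosen with earlier results of these data known. Named genes are all members, Brr2, all tested cofactors and up to 4 genes per other list by smallest adjusted p, for snoRNAs among those with at least 1 CPM on average. Rbm7, Toe1, GAR1, NAF1 and Shq1 were not analysed here.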

Additional observations from a re-analysis of the deposited data

How the results depend on the processing

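Of 717 refits of the 48 named genes, 630 kept direction and side of the threshold; 34 lost a call, 15 gained one and 38 changed sign, all 38 in genes not called. With total counts as the only scaling, signs turned for Dis3 (-0.22), Rrp6 (-0.08), Rrp4 (-0.31), Rrp45 (-0.12), Csl4 (-0.02), Mtr4 (-0.1), Rrp47 (-0.11), Mpp6 (-0.09), Cbp80 (-0.29), Ars2 (-0.3), Nopp140 (-0.08), Uhg1 (-0.13), Uhg5 (-0.09) and Uhg3 (-0.23), and counts of calls were 1 cofactor, 5 decapping, 3 other 3′ to 5′, 0 snoRNP protein, 29 snoRNA and 3361 of all genes. This scaling moved the median of all genes by -0.34 and gave 573 genes higher and 2788 lower, against 933 and 1116 as reported; upper quartile scaling moved it by 0.12 and gave 1227 and 809. Rrp42 became 0.12, 0.09, 0.0013, 0.001 and 0.02 under upper quartile, the 5 CPM filter, RLE, DESeq2 and genes only; tst 0.05 and 0.02, and Uhg4 0.03 and 0.0009, under upper quartile and the 5 CPM filter. DESeq2 called 1 cofactor, 2 other 3′ to 5′, 84 of 236 snoRNA and 3196 of 11590 genes. Without a filter 3 deadenylation, 0 snoRNP protein, 29 of 284 snoRNA and 1258 of 16153 genes were called. With the 5 CPM filter only 34 snoRNA genes were tested and 24 of them were called, beside 25.4% of all genes. The cause of these moves was not tested. With the replicate block, calls were 2 exosome genes (Ski6 added), 1 cofactor (CG4622) and 2 other 3′ to 5′ genes (prage added); apart from pcm and the markers Col4a1 and vkg, the block changed no other call of a named gene.

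Leaving out single libraries gave 0 to 2 exosome, 0 to 0 cofactor, 1 to 2 SKI and rescue, 1 to 4 decapping, 1 to 5 deadenylation, 0 to 2 other 3′ to 5′, 0 to 2 snoRNP protein, 8 to 62 snoRNA and 629 to 1928 of all genes called, and -1.05 to -0.81 for Brr2. The exosome count was 0 without any knockdown library or control replicate 1, and 2 without control replicate 3. Log2 fold changes crossed 0 for Rrp4 (-0.06 to 0.29), Rrp42 (-0.1 to 0.06), Trf4-2 (-0.95 to 1.04), Cbp80 (-0.02 to 0.15), Ars2 (-0.09 to 0.22), tst (-0.19 to 0.01), CG7637 (-0.6 to 0.03), Uhg4 (-0.16 to 0.05), Uhg5 (-0.23 to 0.75) and Uhg3 (-0.02 to 0.36).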

Other observations

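Of the 28 genes that overlap a member or lie next to it, 26 were tested and 4 were called (15.4%, near the 17.7% of all genes): CG31937 beside Rrp40 and ItgaPS5 beside Rrp4 rose, and Irp-1B beside Rrp46 and CG33332 beside Rrp6 fell. CG33332 had 0.5682, 0.9585 and 0.4113 CPM in the knockdown libraries, against 3.593, 3.472 and 4.164 CPM in the control libraries (log2 fold change -2.53, edgeR adjusted p = 0.00693, and up to 0.0317 without a single library). The other 3 calls were lost without at least 4 of the 6 libraries in turn.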
